A study of Mus musculus with 8 samples.

Results

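The genes described here are those of the oxidative phosphorylation machinery, followed across leukemic cells of mice given a mutant IDH1 inhibitor, a DNA methylation inhibitor or both. They were chosen by symbol alone: every row whose name starts with Nduf, Uqcr, Cox4, Cox5, Cox6, Cox7, Cox8, Atp5, mt-Nd, mt-Co, mt-Cytb or mt-Atp, together with Sdha, Sdhb, Sdhc and Sdhd. The rule found 102 of the 12294 measured genes. Of these, 92 encode subunits (42 of complex I, 4 of complex II, 9 of complex III, 18 of complex IV and 19 of complex V), 8 are the complex I assembly factors Ndufaf1 to Ndufaf8, and Cox7a2l and Ndufa4l2 are paralogs counted apart. Mitochondrial DNA encodes 11 of the subunits, and 91 of the 102 genes are nuclear. Ndufa4 was counted with complex IV, of which its protein is a subunit despite the name.

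The cells were I1DN leukemic progenitors, sorted as cKit+/CD11b- cells from mice that had been transplanted with I1DN leukemic cells. The series title places the work in acute myeloid leukemia with mutant IDH1. Treatment lasted 5 days and made 4 groups of 2 libraries each: AG120_AZA (both drugs), AG120 (ivosidenib, a mutant IDH1 inhibitor), AZA (azacitidine, a nucleoside drug that lowers DNA methylation) and Vehicle. All 4 groups carry the same leukemia, so no library is of normal cells, and all cells come from recipients whose own blood cells could enter the sort. Cells were sorted per mouse, but nothing says that each library is a different mouse. The p-values below therefore measure the spread between libraries.

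Oxidative phosphorylation is carried out in the inner mitochondrial membrane. Complex I takes electrons from NADH and complex II takes them from succinate. Complex III passes them through cytochrome c to complex IV, which reduces oxygen, and complex V uses the resulting proton gradient to make ATP. The mitochondrial genome encodes core membrane subunits of every complex except complex II, and nuclear genes encode the others. Acute myeloid leukemia cells, and their stem-like cells in particular, are known to rely on this pathway. Mutant IDH1 turns 2-oxoglutarate into 2-hydroxyglutarate, which inhibits 2-oxoglutarate-dependent dioxygenases, including those that demethylate DNA and histones.

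The promoter of Cox6b2, the member that changed most clearly, is shown because azacitidine acts on methylation of CpG sites. Cox6b2 lies on chromosome 7 of GRCm38 (4751792 to 4753094, minus strand, GENCODE M21). The 250 bases before its start (chr7:4753095-4753344, minus strand, RefSeq, GRCm38.p6) are printed 5′ to 3′ with the CpG dinucleotides in capitals:
Cox6b2 upstream: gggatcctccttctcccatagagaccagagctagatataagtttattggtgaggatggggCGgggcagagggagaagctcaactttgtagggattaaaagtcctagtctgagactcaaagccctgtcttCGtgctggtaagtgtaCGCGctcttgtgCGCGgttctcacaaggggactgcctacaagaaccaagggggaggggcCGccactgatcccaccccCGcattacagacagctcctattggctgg
This stretch held 8 CpG dinucleotides. The upstream stretch of Cox6b1, the gene for the widely expressed form of the same subunit (chr7:30626115-30626364, minus strand), held 14. The median was 15 over the nuclear members with an entry and 6 over all promoters in the table. Methylation of these sites was not analysed here.

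Many respiratory genes carry sites for nuclear respiratory factor 1 near their start. The full motif (GCGC, any base, then TGCGC), read on both strands from 250 bases before to 50 bases after the start, occurred in 20 of the 80 promoters listed for 75 nuclear members (25%), against 4.60% of all 32851 promoters. The shorter core GCATGCGC, which overlaps the full motif, occurred in 15% of the members' promoters and 2.71% of all. The ETS motif CCGGAAGT occurred in 6.2% of the members' promoters and 3.89% of all. All 3 motifs contain a CpG, and the promoters compared were not matched for CpG content (median 15 for nuclear members, 6 for all). The windows of the 2 complex III genes that rose with AG120 are printed below with the matched motif in capitals, 5′ to 3′ on the gene's strand. They lie at chr9:108936643-108936672 (plus strand), chr9:108936668-108936697 (plus strand), chr10:80406807-80406836 (minus strand) and chr10:80406869-80406898 (minus strand):
Uqcrc1 first match: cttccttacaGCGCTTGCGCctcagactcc
Uqcrc1 second match: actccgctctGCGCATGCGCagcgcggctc
Uqcr11 shorter core: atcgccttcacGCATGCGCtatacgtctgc
Uqcr11 ETS motif: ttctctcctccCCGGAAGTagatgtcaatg
A match describes these letters and does not show that the factor is bound. The listed promoters of Cox6b2, Atp5g1, Ndufa9 and Ndufa12, which also rose, hold none of the 3 motifs.

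Levels are log2 CPM (read counts scaled to a common library total) from sequencing of transcript 3′ ends, so that each transcript gives reads from its end and levels were not divided by length. The libraries share the same distribution of values (the maximum is 13.37 in all 8), and the depth of each library is unknown. In AG120_AZA replicate 2, 226 genes stood at the lowest value of the library, against a range of 100 to 376 over the 8 libraries. This library was the highest of the 8 for 37.3% of the members (24.9% of all genes). It was the lowest for 12 members, which is a smaller share than over all genes. Replicates of a group differed by a median of 0.16 to 0.25 over the members and 0.31 to 0.41 over all genes, on the log2 scale.

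With AG120, alone or with AZA, 7 of the 102 members rose, all of them by less than 1 on the log2 scale except Cox6b2, and none fell. The comparison sets the 4 libraries with AG120 against the 4 without, with AZA as a covariate, and counts a gene at an adjusted p below 0.05 (limma, Benjamini-Hochberg over all genes). Of all genes 5.85% passed, and 3.38% passed as higher. The members' share of 6.86% is near the 5.85% called in either direction. All 7 called members were higher, where the share of all genes was 3.38%. At an unadjusted p below 0.05, 25 members passed in either direction, which was 24.5% of the members, against 22.9% of all genes. The direction was more uneven: 71 of 102 members (69.6%) had a positive change, with a median of 0.17, against 50.7% and 0.01 over all genes.

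Cox6b2, the isoform of cytochrome c oxidase subunit VIb known from testis, was the clearest change. It stood at 6.50 and 6.71 log2 CPM in AG120_AZA cells and at 6.66 and 6.63 in AG120 cells, against 4.20 and 5.24 in AZA cells and 4.23 and 3.87 in Vehicle cells. The 4 libraries with AG120 spanned 0.21, and each was above all 4 without it. The change was 2.24 ± 0.25 (SE) on the log2 scale, 4.72-fold, with an adjusted p of 0.000882 (limma). It rose in AG120 cells by 2.60 ± 0.33 (adjusted p = 0.00836, limma) and in AG120_AZA cells by 2.56 ± 0.33 (adjusted p = 0.00384, limma), each against the same Vehicle libraries. It was the only member called in either of these comparisons, in which 0.578% and 3.02% of all genes were called. The call in AG120 cells was lost without Vehicle replicate 1 or without either AG120 library, and the call in AG120_AZA cells without AG120_AZA replicate 2. Both were also lost without the mean-variance trend, and over all alternatives the adjusted p reached 0.111 and 0.0622 (limma).

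Cox6b1, the widely expressed form of that subunit, stood at 7.52 and 7.66 log2 CPM in AG120_AZA cells, 7.83 and 7.91 in AG120 cells, 7.39 and 7.36 in AZA cells and 7.51 and 7.55 in Vehicle cells. The libraries of AG120_AZA and Vehicle overlapped, and the change with AG120 was 0.28 ± 0.13 (adjusted p = 0.216, limma). The mean difference of Cox6b2 minus Cox6b1 was -0.99 in AG120_AZA cells and -1.22 in AG120 cells, against -2.65 in AZA cells and -3.49 in Vehicle cells.

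**Figure D1:**
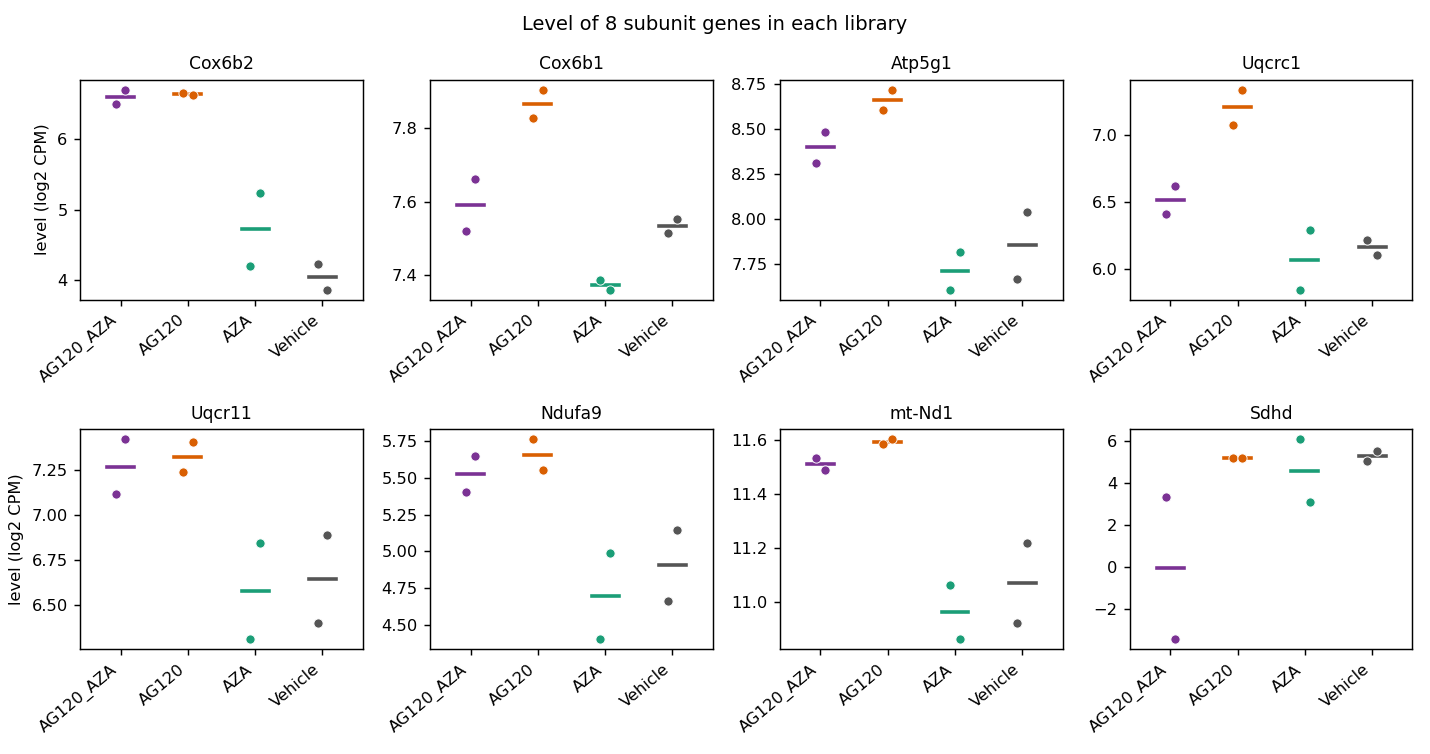
Level of 8 subunit genes in log2 CPM (vertical axis, scaled separately per gene) in the 2 libraries (points) of each treatment group, with the group mean as a bar. Cox6b2 lies between 6.50 and 6.71 in the 4 libraries with AG120 and between 3.87 and 5.24 in the 4 without, while Sdhd has a single AG120_AZA library at -3.43.

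Atp5g1 encodes subunit c of the proton-driven ring of complex V. It stood at 8.31 and 8.48 log2 CPM in AG120_AZA cells and at 8.61 and 8.72 in AG120 cells, against 7.61 and 7.82 in AZA cells and 7.67 and 8.04 in Vehicle cells. All libraries with AG120 were above all without it, and the change was 0.75 ± 0.14 (1.68-fold, adjusted p = 0.0103, limma). Atp5g2 and Atp5g3 encode the same mature protein and changed by 0.21 ± 0.25 and 0.21 ± 0.17 (adjusted p = 0.656 and 0.479, limma). Of the 50-base words in the last 500 bases of Atp5g1 transcripts, 45.9% also occur in transcripts of other genes. Gm10039, which is not among the measured genes, holds the most of them, so part of the Atp5g1 reads may be shared.

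In complex III, Uqcrc1, a core protein on the matrix side, stood at 6.40 and 6.62 log2 CPM in AG120_AZA cells and at 7.07 and 7.33 in AG120 cells, against 5.84 and 6.29 in AZA cells and 6.21 and 6.11 in Vehicle cells. It was highest in AG120 cells, and its change with AG120 over both AZA levels was 0.74 ± 0.18 (1.68-fold, adjusted p = 0.0339, limma). The change in AG120 cells alone was 1.04 (adjusted p = 0.0848, limma), which did not pass. Uqcr11, a small accessory subunit, stood at 7.12 and 7.42 in AG120_AZA cells, 7.24 and 7.41 in AG120 cells, 6.31 and 6.84 in AZA cells and 6.40 and 6.89 in Vehicle cells. Its change was 0.69 ± 0.17 (1.61-fold, adjusted p = 0.0400, limma), with the libraries of either side not overlapping.

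In complex I, 3 subunits rose. Ndufa9, an accessory subunit of the matrix arm, stood at 5.40 and 5.65 log2 CPM in AG120_AZA cells, 5.76 and 5.55 in AG120 cells, 4.40 and 4.99 in AZA cells and 4.66 and 5.15 in Vehicle cells, a change of 0.79 ± 0.20 (1.73-fold, adjusted p = 0.0422, limma). It overlaps the antisense gene 1700018A23Rik, and no source used here gives the strand setting of the counting. Ndufa12, an accessory subunit near the NADH-oxidising tip of that arm, stood at 6.52 and 7.01 in AG120_AZA cells, 6.83 and 7.01 in AG120 cells, 6.01 and 6.26 in AZA cells and 6.21 and 6.34 in Vehicle cells, a change of 0.64 ± 0.16 (1.56-fold, adjusted p = 0.0388, limma). Of its 3′-end words, 24.9% also occur in other genes, the most in Gm15920. Mitochondrially encoded mt-Nd1, a core subunit next to the quinone site, changed by 0.53 ± 0.13 (1.45-fold, adjusted p = 0.0373, limma).

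Only Cox6b2 held its call in all 12 alternative analyses of the change with AG120. Atp5g1 held it in 10, Ndufa9, Uqcr11 and Uqcrc1 in 5, Ndufa12 in 4 and mt-Nd1 in 3. Leaving out single libraries left between 1 and 6 members called. The lowest count came without AG120 replicate 1, and 2 members remained without Vehicle replicate 1, AG120 replicate 2, AZA replicate 1 or AG120_AZA replicate 2, while 4 remained without AG120_AZA replicate 1. Positive changes were found in 69 to 73 of the 102 members in each of these runs.

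Transcripts of other blood lineages moved with AG120 in the same libraries. Of 12 erythroid markers 7 were called higher with AG120, and their summed level ranged over 3687 to 3749 CPM in AG120_AZA cells, 773.6 to 1837 in AG120 cells, 1651 to 3634 in AZA cells and 1358 to 1997 in Vehicle cells. Hbb-bs, Hba-a1 and Alas2 had changes of -0.80, -0.79 and -1.03 with AG120 (adjusted p = 0.369, 0.343 and 0.249, limma), and Hbb-bs, the most abundant of these 3, was at 11.33 and 11.20 log2 CPM in AG120_AZA cells, 9.64 and 7.39 in AG120 cells, 10.40 and 11.63 in AZA cells and 10.62 and 10.10 in Vehicle cells. Of 11 mast cell, basophil and eosinophil markers 7 were called higher, with sums of 2339 to 3709 CPM in AG120_AZA cells, 3616 to 3813 in AG120 cells, 1462 to 1471 in AZA cells and 937.4 to 1363 in Vehicle cells. Of 6 immature progenitor markers 5 were called lower, with sums of 434.3 to 501.6 CPM in AG120_AZA cells, 626.1 to 681.4 in AG120 cells, 772.8 to 934.9 in AZA cells and 839.3 to 1052 in Vehicle cells. Of the other lists, 3 of 7 monocyte and dendritic markers, 1 of 12 neutrophil markers and 1 of 6 megakaryocyte markers were called lower, and none of 5 primary granule genes or of the few B cell, T cell and stromal genes measured was called. Kit, the surface marker of the sort, was among the progenitor genes called, at 4.51 and 4.26 log2 CPM in AG120_AZA cells, 5.15 and 5.84 in AG120 cells, 6.65 and 5.54 in AZA cells and 6.31 and 6.59 in Vehicle cells. Itgam, which encodes CD11b, was between 2.098 and 4.53 log2 CPM in all 8 libraries. Of the defining markers, Siglech, Hoxa9, Pax5, Ebf1, Cd79a, Cd3e, Cd3g, Cd8a, Cxcl12, Col1a1, Col1a2 and Cdh5 were not analysed here. In bulk RNA, fewer cells of a type and less RNA per cell cannot be told apart, and the part of these lineages in the changes of the respiratory genes was not tested.

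Among the members, 18 (17.7%) had all 4 libraries with AG120 above all 4 without, and 1 (0.98%) had them all below. Over all genes the shares were 8% and 5.99%. All genes were not matched to the members for level (median 4.32 log2 CPM, against 7.33 for the members) or for the gap between replicates. Besides the 7 called genes, the 18 comprised Cox4i1, mt-Co2, mt-Co3, mt-Nd2, Ndufab1, Ndufb6, Ndufb9, Ndufv1, Uqcr10, Ndufaf2 and Ndufaf7. Leaving out single libraries gave 19 to 29 such members against 9.35% to 12.7% of all genes. The single member below was Ndufs4, an accessory subunit of the matrix arm of complex I. Ndufs4 stood at 6.66 and 6.74 log2 CPM in AG120_AZA cells, 6.64 and 6.59 in AG120 cells, 6.93 and 6.90 in AZA cells and 6.77 and 6.98 in Vehicle cells, a change of -0.24 ± 0.14 (adjusted p = 0.318, limma). The genes listed in these counts outside the called ones were found from the values themselves.

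**Figure D2:**
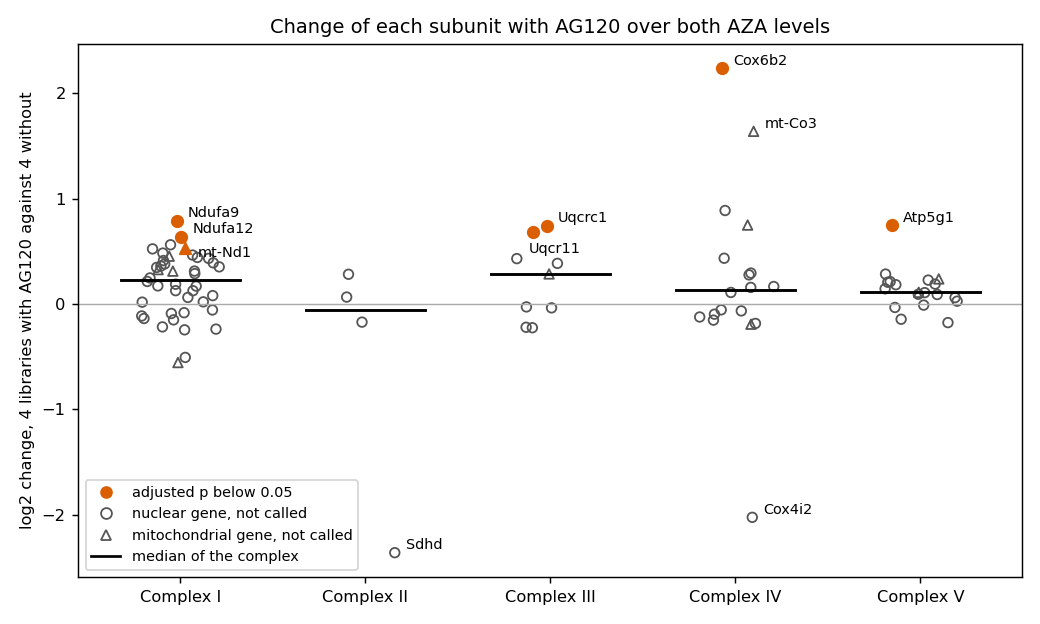
Change of each of the 92 subunits with AG120 (log2, 4 libraries with AG120 against 4 without, AZA as covariate; vertical axis) by complex; filled points passed an adjusted p below 0.05 (limma), triangles are mitochondrially encoded genes, and bars are the medians of the complexes. The medians lie between -0.05 for complex II and 0.29 for complex III, and Cox6b2 at 2.24 stands above all other subunits. Over its nuclear subunits alone the median of complex III is 0.18.

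The complexes were set side by side by the median change of their subunits with AG120, as a description without a test. The median was 0.23 for complex I (31 of 42 positive), -0.05 for complex II (2 of 4), 0.29 for complex III (5 of 9), 0.13 for complex IV (10 of 18) and 0.11 for complex V (15 of 19). The value for complex III is that of mitochondrially encoded mt-Cytb. Over the nuclear subunits alone, the medians were 0.19, 0.18, 0.11 and 0.11 for complexes I, III, IV and V. In AG120 cells against Vehicle the medians over all subunits were 0.24, -0.06, 0.17, 0.15 and 0.20 for complexes I to V. In AG120_AZA cells against the same Vehicle libraries they were 0.14, 0.08, 0.08, 0.04 and 0.15. The pooled SD between replicates of a complex's median, each gene centred first, was 0.12 for complex I, 0.23 for complex II, 0.09 for complex III, 0.06 for complex IV and 0.04 for complex V. This SD is between single libraries and of another measure, so it is no gauge of the median change. Without AZA replicate 1, the median change of complex IV over both AZA levels was 0.03. Without Vehicle replicate 1 the medians in AG120 cells were 0.10 for complex I, -0.28 for complex II and -0.003 for complex IV. In AG120_AZA cells they were then 0.02 for complex I, -0.13 for complex II and 0.02 for complex III. Over all single libraries left out, the medians of AG120 against Vehicle ran over 0.10 to 0.39, -0.28 to 0.15, 0.14 to 0.47, -0.003 to 0.15 and 0.12 to 0.20 for complexes I to V.

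**Figure D3:**
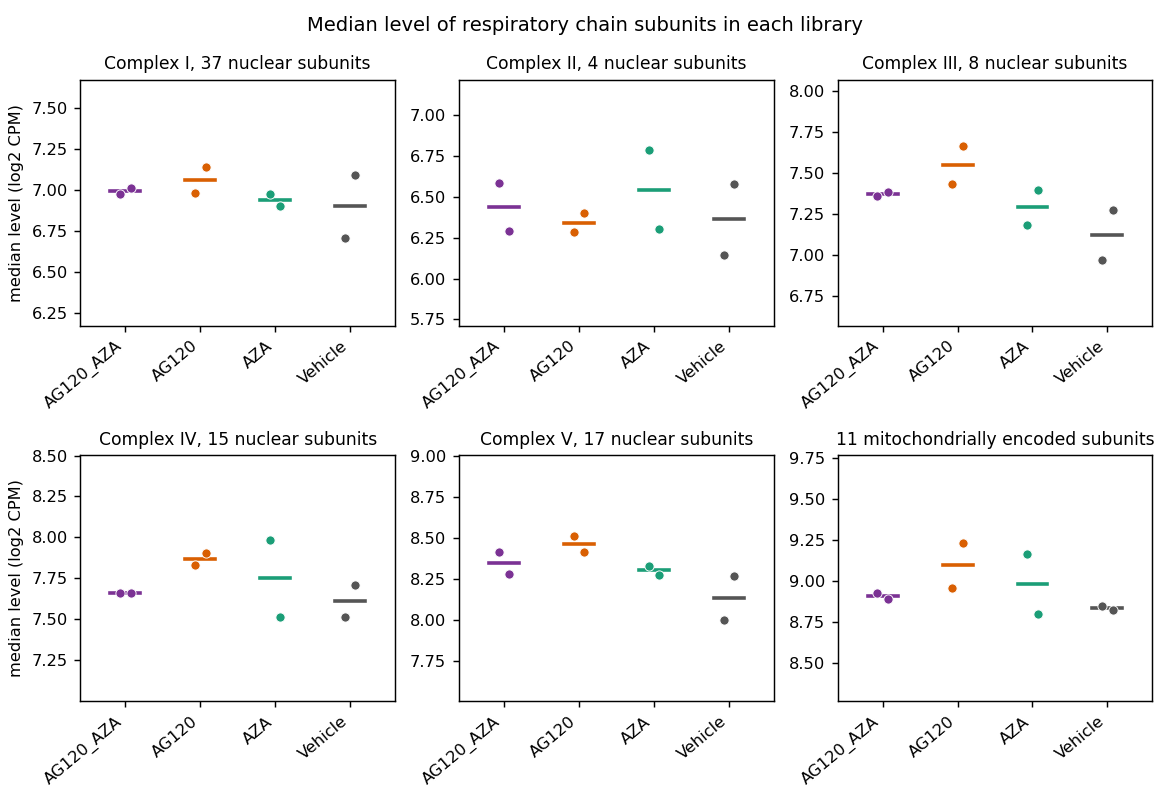
Median level in log2 CPM of the nuclear subunits of each complex and of the 11 mitochondrially encoded subunits in each library (points) with the group mean as a bar; every panel spans the same height. In complex V the AG120 libraries are at 8.51 and 8.41 and the Vehicle libraries at 7.996 and 8.27. AG120 and Vehicle overlap in complexes I and II. AG120_AZA overlaps AZA in complexes II, III, IV and V and in the mitochondrially encoded subunits.

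In complex I the levels ran from 4.797 log2 CPM for Ndufs8, an iron-sulphur subunit, to 8.55 for Ndufb8, a membrane arm subunit, as means over the 8 libraries of the nuclear genes. The core subunit Ndufv1, which binds NADH and flavin, stood at 8.77 and 8.87 in AG120_AZA cells, 8.73 and 8.76 in AG120 cells, 7.89 and 8.66 in AZA cells and 8.30 and 8.03 in Vehicle cells. Its groups did not overlap across AG120, but its change of 0.56 ± 0.17 did not pass (adjusted p = 0.0706, limma). Ndufb9, of the membrane arm, gave 0.52 ± 0.16 (adjusted p = 0.0705, limma). Ndufb4, also of the membrane arm, was at 6.06 and 6.25 in AG120_AZA cells, 6.01 and 6.35 in AG120 cells, 6.09 and 6.31 in AZA cells and 5.17 and 5.66 in Vehicle cells. It was thus lower in both Vehicle libraries than in the other 6, with changes of 0.74, 0.76 and 0.78 against the same Vehicle libraries, of which none passed (adjusted p = 0.130, 0.226 and 1, limma). Ndufb11 varied least in this complex, over a range of 0.25.

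The 8 assembly factors of complex I, which are not part of the finished enzyme, had a median change of 0.39 with AG120 and 7 positive values, and none was called. Ndufaf7, a methyltransferase needed for assembly, stood at 4.96 and 5.37 log2 CPM in AG120_AZA cells, 5.05 and 4.84 in AG120 cells, 4.64 and 4.46 in AZA cells and 4.16 and 4.37 in Vehicle cells. Its change with AG120 was 0.65 ± 0.20 (adjusted p = 0.0732, limma). Ndufaf2, the assembly paralog of Ndufa12, gave 0.54 ± 0.22 (adjusted p = 0.169, limma). In AG120_AZA cells all 8 were above Vehicle on average, by 0.17 for Ndufaf8 to 0.97 for Ndufaf1, and none passed.

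Complex II, which is wholly nuclear-encoded and shared with the tricarboxylic acid cycle, had no called subunit. Sdha, the flavoprotein that oxidises succinate, changed with AG120 by 0.07 ± 0.15, and Sdhb, the iron-sulphur subunit, by 0.28 ± 0.17 (adjusted p = 0.820 and 0.356, limma). Sdhc, a membrane anchor, gave -0.17 ± 0.23 (adjusted p = 0.696, limma). Sdhd, the other membrane anchor, stood at 3.31 and -3.43 log2 CPM in AG120_AZA cells, 5.18 and 5.17 in AG120 cells, 6.06 and 3.10 in AZA cells and 5.02 and 5.49 in Vehicle cells. The value of -3.43 is the lowest in AG120_AZA replicate 2, where Sdhd stood with the genes at the floor. The range of 9.49 over the 8 libraries was the widest of any member.

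The change of Sdhd in AG120_AZA cells was -5.32 (adjusted p = 0.0944, limma), which did not pass. It was -1.95 without AG120_AZA replicate 2, and -8.68 without AG120_AZA replicate 1, where it passed (adjusted p = 0.00138, limma). One library therefore set its size. The same library was the lowest of the 8 for mt-Nd6 (7.91 log2 CPM, against 8.93 in the other AG120_AZA library), Ndufb3 (5.38 against 6.32) and Ndufa4 (4.69 against 5.71).

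In complex III the levels of nuclear genes ran from 5.21 log2 CPM for Uqcrfs1, the Rieske iron-sulphur protein, to 9.18 for Uqcrq, a small accessory subunit. Uqcrq changed with AG120 by 0.43 ± 0.14 and Uqcrfs1 by -0.22 ± 0.23 (adjusted p = 0.0963 and 0.599, limma). Uqcrh, the hinge protein that binds cytochrome c1, had the narrowest range of all members, 0.22 over the 8 libraries. Of the 8 nuclear genes, 4 had positive and 4 had negative changes. None was called lower (0 of 8), so whether the subunits differed in direction is not resolved. Cyc1, the cytochrome c1 gene of this complex, lies outside the symbol rule and gave 0.61 ± 0.18 (adjusted p = 0.0677, limma).

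Complex IV has tissue-specific isoforms, and in these cells the widely expressed forms were the abundant ones. As means over 8 libraries, Cox4i1 was at 11.20 log2 CPM and Cox4i2, known from lung, at -0.15. Cox6a1 was at 9.85 and the heart and muscle form Cox6a2 at -0.31, and Cox7a2 was at 9.69 and the muscle form Cox7a1 at 1.91. Cox6b1 at 7.59 and Cox6b2 at 5.50 lay closer together. Ndufa4 was at 5.58 and its hypoxia-induced paralog Ndufa4l2 at 4.88, and Cox8a stood at 8.62.

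Cox4i1 stood at 11.38 and 11.36 in AG120_AZA cells, 11.46 and 11.49 in AG120 cells, 10.56 and 11.05 in AZA cells and 11.25 and 11.09 in Vehicle cells. The libraries with AG120 were the highest, but the change of 0.43 ± 0.15 did not pass (adjusted p = 0.103, limma). Cox4i2 was at -1.81 and 0.85 in AG120_AZA cells, -1.90 and -1.81 in AG120 cells, 0.56 and 2.39 in AZA cells and 0.39 and 0.08 in Vehicle cells, too close to the floor for its change of -2.03 ± 0.87 to be read (adjusted p = 0.192, limma). Cox6a2, between -3.63 and 1.68, was likewise near the floor. Cox6c, a subunit without isoforms, ranged over only 0.24.

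In complex V the levels of nuclear genes ran from 4.27 log2 CPM for Atp5g2 to 9.96 for Atp5b, the catalytic β subunit. Atp5b changed with AG120 by 0.23 ± 0.14 (adjusted p = 0.375, limma), and Atp5g1 at 8.16 and Atp5g3 at 8.05 had the higher levels of the 3 subunit c genes. Of the 3′-end words of Atp5g2, 47.3% also occur in other genes, the most in the measured gene Gm10175. The level of Atp5g2 therefore depends on how shared reads were counted. Of the 19 subunits, 15 had positive changes, from 0.03 for Atp5j2 to 0.75 for Atp5g1. Atpif1, which encodes the inhibitor of this enzyme and lies outside the rule, was called higher with AG120. It stood at 9.95 and 10.27 log2 CPM in AG120_AZA cells, 9.98 and 9.58 in AG120 cells, 9.23 and 9.33 in AZA cells and 9.51 and 9.22 in Vehicle cells, a change of 0.62 ± 0.16 (adjusted p = 0.0400, limma).

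The 11 mitochondrially encoded subunits had a median change of 0.31 with AG120, with 9 of 11 positive and mt-Nd1 called, against 0.14 and 54 of 81 positive for the nuclear-encoded subunits. mt-Nd1 stood at 11.53 and 11.49 log2 CPM in AG120_AZA cells and 11.58 and 11.60 in AG120 cells, against 11.07 and 10.86 in AZA cells and 10.93 and 11.22 in Vehicle cells. Its annotated end overlaps the tRNA gene mt-Ti, which was also higher with AG120, by 0.61 ± 0.13 (adjusted p = 0.0166, limma), and reads of the overlap cannot be told apart. Together the 11 genes took between 1.24% and 2.04% of the total in a library.

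The mean of the 11 genes was 8.34 and 8.35 log2 CPM in AG120_AZA cells and 8.39 and 8.53 in AG120 cells, against 8.24 and 7.87 in AZA cells and 7.97 and 8.11 in Vehicle cells. The 4 libraries with AG120 were the highest by this mean over all 11 genes. Over the 7 genes without a near-identical nuclear copy they were not: the mean was 10.03 and 9.81 in AG120_AZA cells and 10.04 and 10.22 in AG120 cells, against 10.05 and 9.62 in AZA cells and 9.73 and 9.86 in Vehicle cells. Over the nuclear-encoded subunits the mean was 7.13 in both AG120_AZA libraries and 7.20 and 7.21 in AG120 cells, against 6.996 and 7.09 in AZA cells and 6.96 and 7.10 in Vehicle cells. The same 4 libraries were the highest by this mean but not by the median, which was 7.38 in Vehicle replicate 2, against 7.36 in AG120 replicate 1 and 7.29 in AG120_AZA replicate 1. The mitochondrial minus the nuclear mean was 1.21 and 1.23 in AG120_AZA cells, 1.19 and 1.32 in AG120 cells, 1.25 and 0.78 in AZA cells and 1.005 and 1.01 in Vehicle cells. AZA replicate 1 thus lay among the libraries with AG120, and AZA replicate 2 below every other.

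The difference was 0.25 above Vehicle in AG120 cells, 0.21 in AG120_AZA cells and 0.01 in AZA cells, against a pooled SD of 0.17 between replicates. It rested on the lowest members: among members with a mean of at least 3 log2 CPM it was 0.05 in AG120 cells and -0.01 in AG120_AZA cells. The mitochondrial genes this leaves out are mt-Co3 and mt-Co2, whose 3′-end words also occur almost wholly in other annotated genes (99.8% and 100%). The most are held by Gm28437 and Gm28661, nuclear copies on chromosome 1. The 3′-end words of mt-Atp6 (99.3%, the most in Gm10925) and mt-Co1 (95.3%, the most in Gm29216) do so too. The 4 genes' values therefore depend on how reads with several matches were counted. All 4 copies are among the measured genes, with means of 3.54, 0.65, 4.83 and 0.55 log2 CPM.

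mt-Co3, a core subunit of complex IV, stood at 2.03 and 3.07 log2 CPM in AG120_AZA cells and 2.62 and 2.77 in AG120 cells, against 0.39 and 1.41 in AZA cells and 0.39 and 1.73 in Vehicle cells. The groups did not overlap across AG120, and its change was 1.64 ± 0.48 (adjusted p = 0.0667, limma). Gm28437, its copy, changed by 0.61 ± 0.26 (adjusted p = 0.195, limma). mt-Co2, which holds the copper site that accepts electrons from cytochrome c, gave 0.75 ± 0.39 (adjusted p = 0.276, limma). The catalytic subunit mt-Co1 gave -0.19 ± 0.18 (adjusted p = 0.569, limma). The complex IV genes of the mitochondrial genome thus differed in sign. The annotated mt-Co1 overlaps the tRNA gene mt-Ts1 (-0.16 ± 0.16, adjusted p = 0.590, limma), and reads of the overlap cannot be told apart.

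Of the complex I genes of the mitochondrial genome, mt-Nd2 gave 0.45 ± 0.14, mt-Nd4 0.33 ± 0.20 and mt-Nd5 0.31 ± 0.13 (adjusted p = 0.0799, 0.352 and 0.177, limma). The annotated mt-Nd2 overlaps the tRNA gene mt-Tw (1.10 ± 0.30, adjusted p = 0.0508, limma), and reads of the overlap cannot be told apart. mt-Nd6, the only protein gene on the light strand, was at 8.93 and 7.91 log2 CPM in AG120_AZA cells, 8.96 and 9.24 in AG120 cells, 9.87 and 8.92 in AZA cells and 9.13 and 9.34 in Vehicle cells. It had the most negative change of the 11, -0.56 ± 0.27 (adjusted p = 0.243, limma), and its groups overlapped. Its 3′ end overlaps that of mt-Nd5 on the opposite strand (positions 13552 to 13565 only), so the strand setting bears on both. mt-Cytb of complex III gave 0.29 ± 0.17 (adjusted p = 0.350, limma), and mt-Atp6 and mt-Atp8 of complex V gave 0.24 ± 0.22 and 0.11 ± 0.16 (adjusted p = 0.553 and 0.727, limma).

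**Figure D4:**
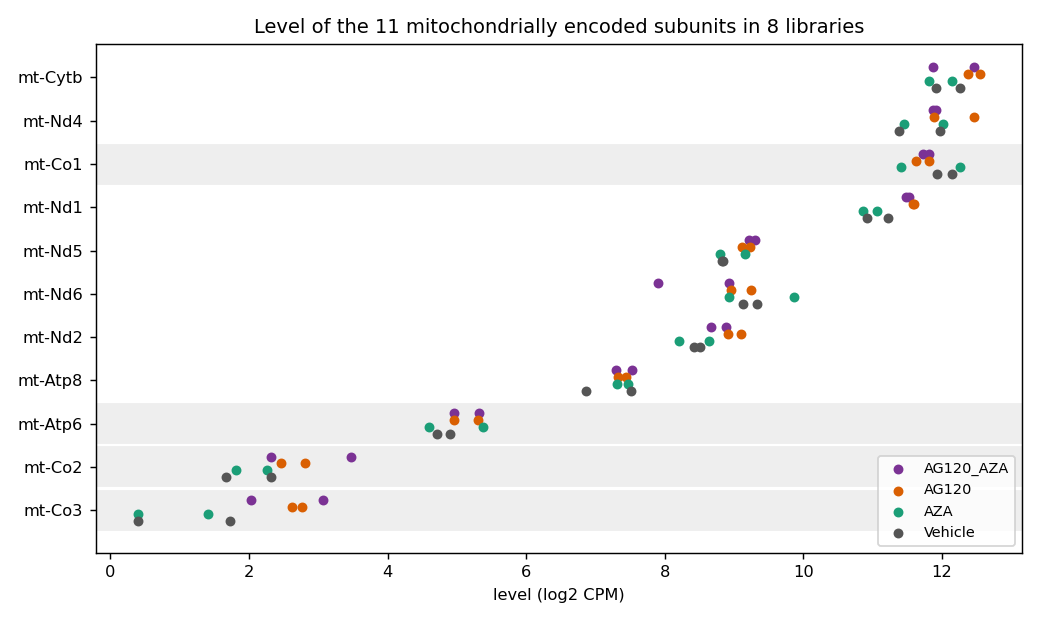
Level of the 11 mitochondrially encoded subunits in log2 CPM (horizontal axis) in the 8 libraries, colored by group; grey bands mark the 4 genes whose 3′ ends have a near-identical nuclear copy. mt-Cytb is highest with a mean of 12.18, and mt-Co3 is lowest with a mean of 1.80.

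AZA alone called none of the members and none of the 12294 genes against Vehicle (0% by limma), with 3 members and 432 genes at an unadjusted p below 0.05. Of the members 50 had positive changes, with a median of -0.002. The smallest p-values were those of Ndufb4, given above, Uqcrb, Atp5l, Cox6b2 and Ndufb6, and none passed (adjusted p = 1, limma). Cox6b2 in AZA cells was 0.68 ± 0.33 above Vehicle, with 5.24 in AZA replicate 2 and 4.20 in AZA replicate 1 against 4.23 and 3.87 log2 CPM in Vehicle cells. The AZA libraries thus enclosed a Vehicle library.

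Over both AG120 levels, AZA likewise called no member and 0% of all genes (limma; 3 members and 761 genes at an unadjusted p below 0.05). The smallest p-values were those of Ndufa3 (-0.36), Sdhd (-2.95), Uqcrc1 (-0.39), Ndufaf3 (0.32) and Cox6a1 (0.26), all at an adjusted p of 0.771 (limma). The test of whether the AG120 change differed with AZA also called no member and 0% of all genes (2 members and 765 genes at an unadjusted p below 0.05). For Cox6b2 the AG120 change was smaller with AZA by 0.72 ± 0.47 (adjusted p = 0.813, limma), and for Uqcrc1 by 0.60 (adjusted p = 0.803, limma). These comparisons do not show that AG120 acts alike with and without AZA.

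Genes of the pathway outside the symbol rule were read from lists of 38 measured assembly factors of the complexes, 14 genes of mitochondrial DNA upkeep and transcription, 6 regulators of respiratory genes, 13 tricarboxylic acid cycle enzymes, and Cycs with Cyc1. None of these was called with AG120. Positive changes were seen in 24 of 38 assembly factors (median 0.17), 9 of 14 mitochondrial DNA genes (median 0.09), 4 of 6 regulators (median 0.19) and 4 of 13 cycle enzymes (median -0.10). The cycle enzymes supply the chain with electrons, and their direction differed between comparisons: 10 of 13 had positive changes in AG120 cells against Vehicle (median 0.04) and 5 of 13 in AG120_AZA cells against the same Vehicle libraries (median -0.09). Cycs, the mobile carrier between complexes III and IV, gave 0.15 ± 0.21 (adjusted p = 0.697, limma).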

How the data were processed

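The authors deposited 1 table of voom-normalized log2 CPM for 12294 genes in 8 libraries of 3′ mRNA sequencing, 2 per group, and no other column of values was present (0 unmatched columns). HISAT2 2.1.0, featureCounts (Subread 1.6.3) and limma 3.42.2 are named with build mm10, per the submitters' processing notes. No source used here gives the strand or multi-mapping settings. Counts were not used, so depth is unknown and no counting interval is given. The shared distribution of values means that a change is relative to the other genes.

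Genes were tested with limma 3.58.1 (R 4.3.3) on all 12294 genes with a mean-variance trend, two-sided, with Benjamini-Hochberg adjustment and a threshold of 0.05. Comparisons with Vehicle and the interaction used 4 group means, and main effects an additive model. The script was tested on simulated data. Members, lists and the naming rule (called members, the smallest p-values, mitochondrial and complex II genes, isoforms, extremes of level and range) were chosen with earlier results of these data known. Shared 3′ ends were counted as 50-base words of the last 500 bases of GENCODE M21 transcripts that occur in any other gene's transcripts. A share of 50%, over all other genes together, was the limit for a near-identical copy. The differences between the replicates of a group, over all genes, correlated between groups at -0.111 to 0.194. Same-numbered replicates were not paired in the main fits, and whether they are pairs is not known. Alternatives were no trend, a minimum mean of 3 log2 CPM, nuclear rescaling, the replicate block, only the 2 groups compared, and leaving out each library.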

Additional observations from a re-analysis of the deposited data

Results flagged for a closer look

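In 5 of the 102 members (4.9%), every library with the other drug moved opposite to every library without it, and the limma test of the difference passed in none; over all genes the pattern occurred in 7.96%. For Atp5l, a membrane subunit of complex V, the AG120 effect was -0.23 with AZA and 0.21 without it, a difference of -0.447 (adjusted p = 0.808, limma). For Uqcr10, a small subunit of complex III, the AZA effect was 0.38 with AG120 and -0.13 without it, a difference of 0.504 (adjusted p = 0.807, limma). For Uqcrb, another small subunit of complex III, the AZA effect was -0.30 with AG120 and 0.50 without it, a difference of -0.801 (adjusted p = 0.794, limma). For Cox7c, a small subunit of complex IV, the AG120 effect was -0.37 with AZA and 0.18 without it, and the AZA effect was -0.27 with AG120 and 0.28 without it, each a difference of -0.549 (adjusted p = 0.808, limma). For Cox5a, another complex IV subunit, the AZA effect was 0.17 with AG120 and -0.24 without it, a difference of 0.409 (adjusted p = 0.810, limma).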

How the results depend on the processing

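Without the mean-variance trend, 0 members and 0 genes were called for AG120 against Vehicle, 0 and 43 for AG120_AZA, 0 and 2 for AZA, and 1 and 211 for AG120 over both AZA levels. With only the 2 groups compared, an alternative chosen after seeing the data, the genes called were 18 for AG120, 200 for AG120_AZA and 1 for AZA. The replicate block left the counts of members at 1, 1 and 7, with 60, 370 and 725 genes called, and exchanged mt-Nd1 for mt-Co3. Leaving out single libraries gave 8 to 103 genes and 0 to 1 members for AG120 against Vehicle, 37 to 727 and 0 to 2 for AG120_AZA, 0 to 1 and 0 for AZA, 201 to 771 and 1 to 6 for AG120 over both AZA levels, and 0 to 29 and 0 to 1 for the interaction. The difference of mitochondrial minus nuclear means in AZA cells against Vehicle ran from -0.23 to 0.24 when an AZA library was left out, and was 0.20 with medians in place of means. Medians gave 0.0126 for AG120_AZA and -0.0023 for AG120 over both AZA levels, where means gave 0.21 and 0.23. With a minimum mean of 3 log2 CPM it was 0.0524, -0.0115 and 0.0194 for AG120, AG120_AZA and AG120 over both AZA levels. The cause of these shifts was not tested beyond the smaller number of libraries or members they use. Among named members, 351 results kept their side of the threshold, 46 no longer passed, 2 newly passed, and none changed sign. With 2 libraries a group and no counts, small changes of single subunits could not be resolved.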
